A study of Mus musculus with 36 samples.

Results

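The genes described here are 10 genes of interleukin-1 (IL-1), IL-6 and tumor necrosis factor (TNF) inflammation, chosen by name among the 21650 genes of the deposited expression table: the ligands Il1a and Il1b, the receptor antagonist Il1rn, the receptors Il1r1, Il1r2 and Il1rap, the cytokines Il6 and Tnf, the prostaglandin synthase Ptgs2 and the inflammasome sensor Nlrp3. All 10 genes were present in the table, and none was left out by a filter. They were followed in primary tumors of 2 intraductal mouse models of triple-negative breast cancer. BALB/c-derived 4T1 cells, which express firefly luciferase and are metastatic, were inoculated in BALB/c hosts. Py230 cells, a line from spontaneous tumors of MMTV-PyMT transgenic mice, were inoculated in C57BL/6 hosts. The hosts were lactating dams, mated at 8 weeks of age, and the cells were given in Matrigel® through the teat canal of the third mammary gland shortly after weaning. Mammary glands of each strain that received Matrigel® alone served as controls. Tumors and glands were collected in weeks 1, 3 and 6 after inoculation, with 3 libraries in each of the 12 groups, 36 in all. Each model was 1 cell line in 1 strain, and fewer 4T1 than Py230 cells were inoculated. Cell line, cell number and host strain thus cannot be told apart in a direct comparison of the tumors.

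IL-1 alpha and IL-1 beta are early alarm cytokines that act on the same receptor pair, IL1R1 with its accessory chain IL1RAP, and drive NF-κB, IL-6, cyclooxygenase-2 and neutrophil-attracting chemokines in neighbouring cells. The brakes are built in: IL-1 receptor antagonist (Il1rn) occupies the receptor without a signal, and IL1R2 is a decoy that binds IL-1 without one. IL-1 beta is made as an inactive precursor that caspase-1 cleaves in an inflammasome such as that of NLRP3, a step that RNA does not show. In mammary tumors, these cytokines are mostly products of myeloid cells and stroma, and of some tumor cells.

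The values were the authors' standardized scores on a log-like scale, centred on 0 within each library and scaled there to an SD of 1. A score above 0 thus means a gene above the average gene of its library, and differences are in score units. Across genes, and not across libraries, 1 score unit went with 2.78 log2 units of the authors' mean normalized count. Where 3 scores are given, they are those of libraries 1, 2 and 3 in this order. The depth of each library is unknown. All 36 libraries were fitted together, so the SE of a gene rests on its spread within all 12 groups of 3 libraries, not within the compared groups alone. Il1b, for example, had a group SD from 0.0253 (C57BL/6 glands, week 6) to 0.737 (Py230 tumors, week 1). Its SE was the same in every comparison between single groups. Every difference was tested with limma over all 21650 genes, and a gene was called at an adjusted p under 0.05. The study describes its tumor samples as independent, but the labels do not tie the libraries of a group to separate animals. The p-values measure this pooled spread between libraries.

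Libraries of the same group correlated with r between 0.947 and 0.993, and no library was a copy of another. Epithelial markers had a mean score between 1.21 and 1.86 in all 36 libraries. Single libraries stood apart within their groups. Py230 library 1 at week 1 had a low score of the leukocyte marker Ptprc (1.07, compared to 1.42 and 1.49). Py230 library 1 and 4T1 library 1 at week 3 had fewer adipocyte transcripts than the others of their groups, with mean scores of 8 adipocyte markers of 0.423 (compared to 1.82 and 2.08) and 0.733 (compared to 2.11 and 2.25). At week 6, 7 keratinocyte markers had a mean score of 0.0722 in 4T1 library 3 (compared to -1.27 and -1.41), 0.704 in BALB/c gland library 2 (compared to -1.39 and -1.31) and 0.871 in C57BL/6 gland library 3 (compared to -1.36 and -1.37), and the adipocyte mean of Py230 library 3 was 1.13 (compared to -0.105 and 0.139). The differences of Il1a, Il1b, Il6 and Ptgs2 from the glands at week 6 were called in both tumors without each of these libraries in turn. In bulk tissue, fewer cells of a type and less RNA per cell cannot be told apart.

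Upstream sequence is shown for the cytokine genes Il1a, Il1b, Il6 and Tnf, and for Ptgs2, which at week 6 had the largest difference of the 10 genes both between 4T1 tumors and their glands and between the tumors. Il1rn and Il1rap were also higher in both tumors at that time and are described by their matches. Each sequence is the 250 bases before the annotated start, 5′ to 3′ on the gene's strand, from RefSeq (build GRCm38.p6), in which all 10 genes had an entry. The windows lie at chr2:129309973-129310222 (Il1a, minus strand), chr2:129371140-129371389 (Il1b, minus strand), chr5:30012864-30013113 (Il6, plus strand), chr17:35202008-35202257 (Tnf, minus strand) and chr1:150099781-150100030 (Ptgs2, plus strand). Capitals mark matches to a TATA box (TATAAA, searched on the sense strand only) and, on both strands, to AP-1 (TGANTCA), C/EBP-type (TTGCNNAA) and CRE-type (TGACGT) motifs and the NF-κB consensus.
Il1a: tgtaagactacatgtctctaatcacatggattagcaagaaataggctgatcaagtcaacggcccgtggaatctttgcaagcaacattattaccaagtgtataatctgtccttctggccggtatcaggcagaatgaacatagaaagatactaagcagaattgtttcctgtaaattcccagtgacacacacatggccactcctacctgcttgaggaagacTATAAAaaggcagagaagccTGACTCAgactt
Il1b: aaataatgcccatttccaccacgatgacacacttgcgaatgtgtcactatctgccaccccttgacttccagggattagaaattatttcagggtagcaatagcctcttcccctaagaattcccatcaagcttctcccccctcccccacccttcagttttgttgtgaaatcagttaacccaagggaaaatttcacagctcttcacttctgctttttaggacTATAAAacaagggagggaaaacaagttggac
Il6: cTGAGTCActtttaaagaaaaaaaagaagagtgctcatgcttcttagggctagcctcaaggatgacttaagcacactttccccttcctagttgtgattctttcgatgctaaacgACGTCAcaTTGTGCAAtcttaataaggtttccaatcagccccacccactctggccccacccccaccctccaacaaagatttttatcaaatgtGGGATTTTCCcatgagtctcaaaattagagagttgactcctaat
Tnf: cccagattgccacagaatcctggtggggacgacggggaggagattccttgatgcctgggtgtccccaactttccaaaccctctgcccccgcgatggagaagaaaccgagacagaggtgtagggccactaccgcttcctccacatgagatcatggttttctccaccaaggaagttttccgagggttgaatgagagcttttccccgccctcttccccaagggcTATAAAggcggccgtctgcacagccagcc
Ptgs2: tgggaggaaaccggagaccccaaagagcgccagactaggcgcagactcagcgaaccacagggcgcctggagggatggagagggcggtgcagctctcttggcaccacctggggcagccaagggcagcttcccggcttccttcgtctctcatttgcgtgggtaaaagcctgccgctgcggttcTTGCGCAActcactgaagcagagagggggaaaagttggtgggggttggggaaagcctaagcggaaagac

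Il6 held matches to 4 of these motifs. From its start, the NF-κB match lay at bases 44 to 35 upstream, the C/EBP-type match at 128 to 121, the CRE-type match at 136 to 131 and the AP-1 match at 249 to 243. Il1a, Il1b and Tnf shared a TATA box that began 32, 31 and 29 bases upstream, and Il1a had an AP-1 match at bases 12 to 6. Ptgs2 had a C/EBP-type match at bases 69 to 62. Among all 32851 promoter windows of this length, 3.9% held the NF-κB consensus, 9.56% the C/EBP-type motif, 6.75% AP-1, 6.47% the CRE-type motif and 7.59% the TATA box. Of the other genes, Il1rn had an AP-1 match (bases 141 to 135), an alternative start of Il1r1 and one of Nlrp3 had an NF-κB match (232 to 223 and 186 to 177), and the first start of Il1r1 had a C/EBP-type match (133 to 126). None of the motifs was found in the windows of Il1r2 and Il1rap. These matches describe letters in a window, not bound sites, and a missing match says nothing about the factor.

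The genes lie in 2 small clusters and apart. Il1a (chromosome 2, 129299610 to 129309972, minus strand) and Il1b (chromosome 2, 129364570 to 129371139, minus strand) are neighbours with 54597 bases between them in GENCODE M21 (GRCm38), and Il1rn lies on the same chromosome (24336853 to 24351494, plus strand). The receptors Il1r2 (chromosome 1, 40074079 to 40125231) and Il1r1 (chromosome 1, 40225080 to 40317257) are separated by 99848 bases on the plus strand. Ptgs2 (chromosome 1, 150100031 to 150108227), Il6 (chromosome 5, 30013114 to 30019981), Nlrp3 (chromosome 11, 59541568 to 59566956) and Il1rap (chromosome 16, 26581704 to 26730117) lie on the plus strand, and Tnf (chromosome 17, 35199381 to 35202007) on the minus strand.

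**Figure D1:**
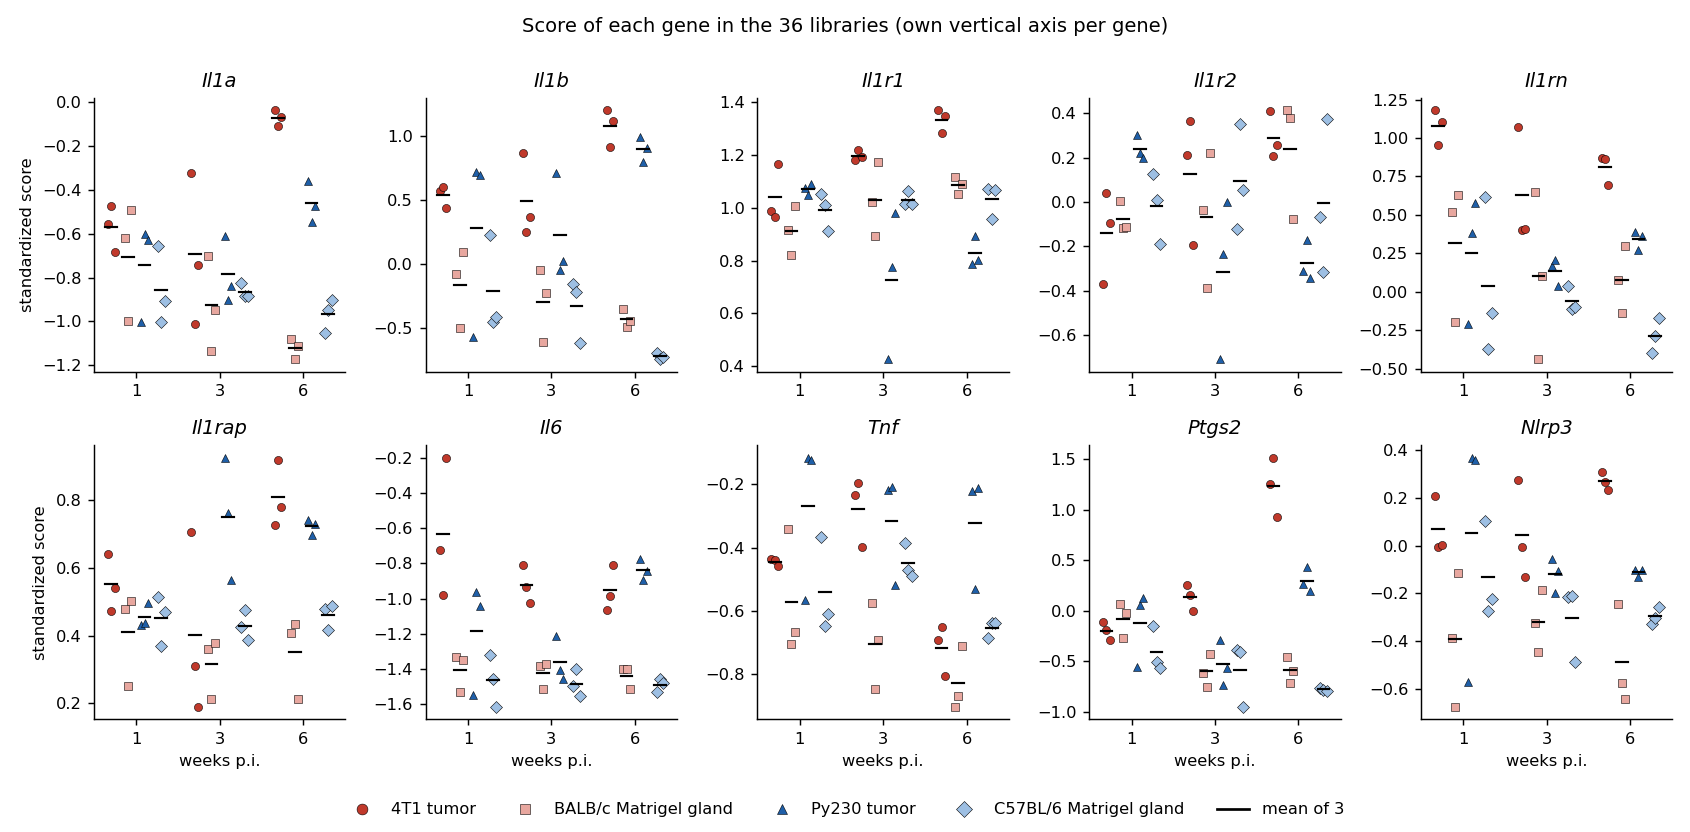
Standardized score (vertical, own axis per gene) of the 10 genes in every library against weeks after inoculation (horizontal), with 3 points and their mean per group. Ptgs2, Il1a, Il1r1, Il1rn and Nlrp3 separated the 4T1 tumors from the other groups of week 6. There, the lowest Ptgs2 score of a 4T1 tumor was 0.932 and the highest of a Py230 tumor 0.429.

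First, each tumor was compared to the Matrigel® glands of its own strain, which asks how far the inflammation genes moved with tumor growth on a fixed host background. In 4T1 tumors, 2 genes were higher at week 1 (16.6% of all genes were called, 9.91% as higher), 3 at week 3 (3.25% of all genes, 2.1% as higher) and 8 at week 6 (60.1% of all genes, 38.6% as higher). In Py230 tumors, none was called at week 1 (0.00924% of all genes, 1 of the 10 had an unadjusted p under 0.05, and none was called without Py230 library 1 either, with adjusted p from 0.106), 1 was higher and 1 lower at week 3 (19.7%), and 7 were higher and 1 lower at week 6 (47.6%). Median differences over the 10 genes at week 6 were 0.608 in 4T1 and 0.421 in Py230 tumors, compared to medians over all genes of 0.0651 and 0.0337. When only the libraries of a contrast were fitted, none of the calls at weeks 1 and 3 was kept, with adjusted p from 0.124 to 0.479.

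**Figure D2:**
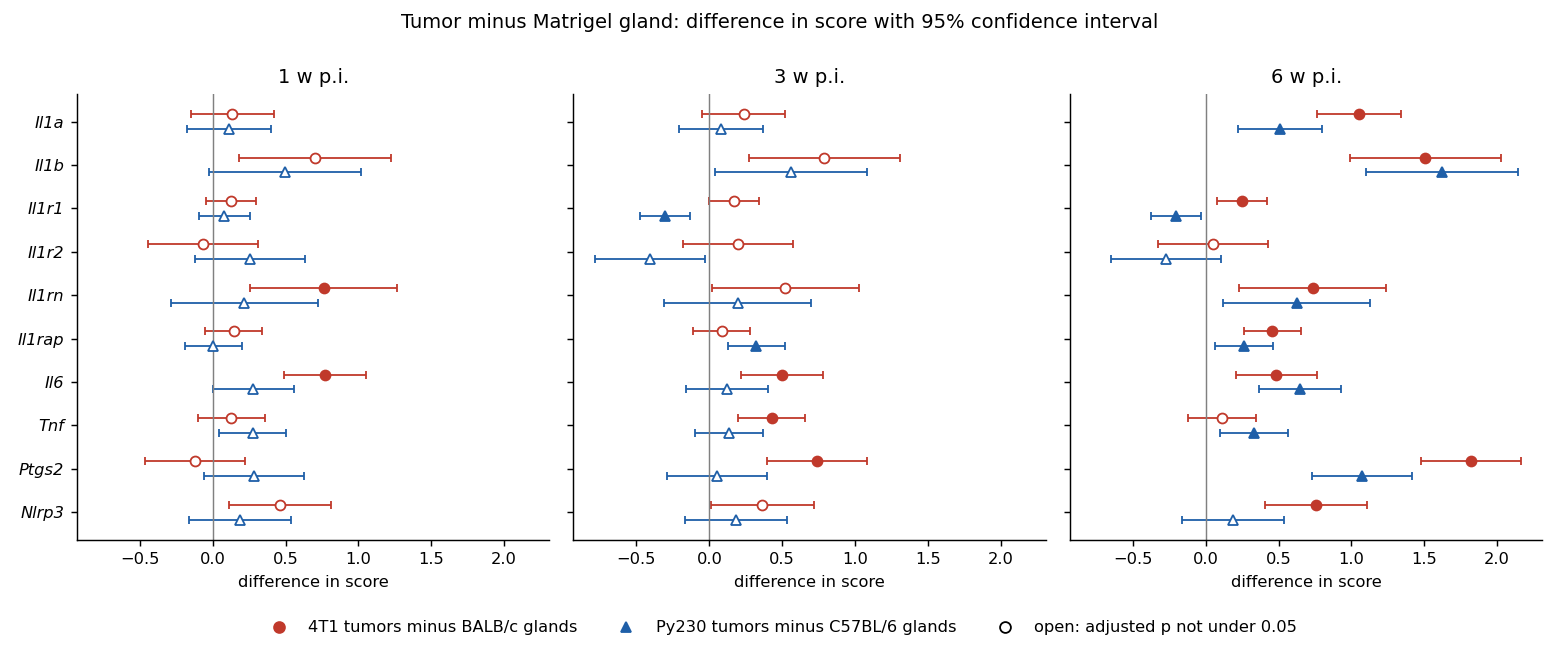
Difference in score between tumors and the Matrigel® glands of their strain (horizontal) with 95% confidence intervals, for each gene and week, filled where the adjusted p was under 0.05. At week 6 both models lie to the right of 0 for most genes, while Il1r1 lies on opposite sides (0.25 in 4T1 and -0.20 in Py230 tumors).

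Il1b, the secreted ligand that the inflammasome matures, was higher in both tumors at week 6. The 4T1 tumors scored 1.21, 0.914 and 1.12 and the Py230 tumors 0.995, 0.801 and 0.91, while the BALB/c glands scored -0.35, -0.49 and -0.446 and the C57BL/6 glands -0.692, -0.742 and -0.721. Tumors and glands did not overlap. The differences were 1.51 ± 0.253 (SE, adjusted p = 1.66e-05) in 4T1 and 1.62 ± 0.253 (adjusted p = 1.37e-05) in Py230 tumors. Earlier, the differences of 4T1 tumors from their glands were 0.70 at week 1 (adjusted p = 0.0565) and 0.79 at week 3 (adjusted p = 0.0769), with no overlap between the groups but no call at either time. The week 1 difference was called without BALB/c gland library 3 (0.827, adjusted p = 0.0425). It was also called when only genes with a score of at least 0 in at least 3 libraries were fitted (adjusted p = 0.0463).

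Il1a, the ligand that is active without inflammasome cleavage, was higher in both tumors at week 6 and to a different extent in each. At week 6 its scores were -0.036, -0.111 and -0.0651 in 4T1 tumors, compared to -1.08, -1.17 and -1.11 in BALB/c glands, a difference of 1.05 ± 0.139 (adjusted p = 5.89e-07). Py230 tumors scored -0.36, -0.546 and -0.472, compared to -1.05, -0.949 and -0.903 in their glands (0.51 ± 0.139, adjusted p = 0.00385). The Py230 tumors thus lay between the glands and the 4T1 tumors, without overlap on either side. At weeks 1 and 3 the tumor and gland scores of Il1a overlapped in both models, with differences from 0.08 to 0.24.

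Il1rn, the soluble receptor antagonist, was higher in 4T1 tumors already at week 1. The 4T1 tumors scored 1.18, 0.952 and 1.1, the BALB/c glands 0.517, -0.195 and 0.632, a difference of 0.76 ± 0.245 (adjusted p = 0.0359). Gland library 2 was lowest, and without it the difference was 0.505 (adjusted p = 0.241). The call was also lost without 4T1 library 1 (adjusted p = 0.127) or 3 (adjusted p = 0.125). At week 6, 4T1 tumors (0.697 to 0.873) and Py230 tumors (0.273 to 0.389) were both higher than their glands, by 0.73 (adjusted p = 0.0123) and 0.63 (adjusted p = 0.0375). The 4T1 call was lost without BALB/c gland library 2 (0.625, adjusted p = 0.0589), and the Py230 call was lost without any 1 of the 6 libraries compared.

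Il1r1, the signaling receptor, moved in opposite directions in the models. At week 6 4T1 tumors scored 1.37, 1.28 and 1.35 and BALB/c glands 1.12, 1.05 and 1.09, a rise of 0.25 ± 0.0842 (adjusted p = 0.0133), which was no longer called after quantile normalization (adjusted p = 0.0562) or scaling by the median and the median absolute deviation (adjusted p = 0.094). Py230 tumors scored 0.788, 0.892 and 0.801 and C57BL/6 glands 1.07, 0.957 and 1.07, a difference of -0.20 (adjusted p = 0.0468) that was lost without Py230 library 1 or 3 or gland library 1 or 3 (adjusted p = 0.108 to 0.127). Neither pair of groups overlapped. At week 3 Py230 tumors were lower as well (0.426, 0.774 and 0.98, compared to 1.02, 1.06 and 1.02), by -0.30 (adjusted p = 0.0128), or -0.154 (adjusted p = 0.242) without Py230 library 1.

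Il1rap, the accessory chain, was higher at week 6 in 4T1 (0.726, 0.92 and 0.781, compared to 0.409, 0.435 and 0.213) and in Py230 tumors (0.741, 0.698 and 0.73, compared to 0.478, 0.416 and 0.488), by 0.46 (adjusted p = 2.21e-04) and 0.26 (adjusted p = 0.0254). The Py230 call was lost without Py230 library 1 or 3 or gland library 2 (adjusted p = 0.0555 to 0.0785). In Py230 tumors it was higher at week 3 too, by 0.32 (adjusted p = 0.0195), but by 0.234 (adjusted p = 0.226) without Py230 library 1, and the call was lost without any of 3 other libraries. Il1r2, the decoy receptor, was not called against the glands at any time, with differences between -0.41 and 0.26. Without Py230 library 3 of week 3, it was called lower in Py230 tumors at that time (-0.566, adjusted p = 0.03).

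Il6 was low in the glands, where all 18 libraries scored between -1.61 and -1.32, and the authors' mean normalized count of the gene over all libraries was 21.4. 4T1 tumors were higher at every time. At week 1 they scored -0.723, -0.982 and -0.201, at week 3 -0.807, -0.932 and -1.03, and at week 6 -1.07, -0.985 and -0.807. All 9 tumors lay above all 18 glands. The differences from the BALB/c glands were 0.77 ± 0.136 (adjusted p = 0.00391), 0.50 (adjusted p = 0.0454) and 0.48 (adjusted p = 0.00362). Py230 tumors were called higher at week 6 alone (-0.778, -0.895 and -0.843, a difference of 0.65 ± 0.136, adjusted p = 3.69e-04), while at weeks 1 and 3 the differences were 0.28 (adjusted p = 0.701) and 0.12 (adjusted p = 0.558). The 4T1 call at week 1 was lost without the highest tumor, library 3 (0.552, adjusted p = 0.0542), and that at week 3 without any of 5 single libraries.

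Tnf, the prototype cytokine of activated macrophages and T cells, was higher in 4T1 tumors at week 3 only (-0.235, -0.197 and -0.398, compared to -0.575, -0.848 and -0.692), by 0.43 (adjusted p = 0.0411). This call was lost when any of 5 of the 6 libraries was left out. At week 6 it was called in Py230 tumors (-0.223, -0.53 and -0.212, compared to -0.686, -0.638 and -0.638), by 0.33 (adjusted p = 0.0171), or 0.282 and 0.277 without a call when Py230 library 1 or 3 was left out. The 4T1 tumors (-0.692, -0.652 and -0.806) overlapped at this time with their glands (-0.903, -0.869 and -0.712).

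Ptgs2, which encodes cyclooxygenase-2, had the widest spread of group means relative to the spread within groups, with a ratio of 2.95. At week 6 4T1 tumors scored 1.26, 1.51 and 0.932 and BALB/c glands -0.453, -0.711 and -0.595, a difference of 1.82 ± 0.167 (adjusted p = 1.54e-09). Py230 tumors scored 0.263, 0.429 and 0.195 and C57BL/6 glands -0.758, -0.78 and -0.789 (1.07 ± 0.167, adjusted p = 1.29e-05). Both tumors lay above their glands without overlap, and both calls held under every alternative that was run. In 4T1 tumors Ptgs2 was also higher at week 3 (0.255, 0.16 and 0.00177, compared to -0.613, -0.754 and -0.432), by 0.74 (adjusted p = 0.0277), a call that was lost without any of 4 single libraries. Without 4T1 library 1 of week 3, none of the 3 calls of Il6, Tnf and Ptgs2 against the glands was kept (adjusted p = 0.255 to 0.405).

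Nlrp3 was higher in 4T1 tumors at week 6 (0.308, 0.267 and 0.232, compared to -0.242, -0.576 and -0.644), by 0.76 ± 0.171 (adjusted p = 4.84e-04). In Py230 tumors of that time the scores were -0.101, -0.13 and -0.102, above all 3 glands (-0.329, -0.303 and -0.256), and the difference of 0.18 was not called (adjusted p = 0.392), but was when only the libraries of this contrast were fitted (adjusted p = 0.00646). At weeks 1 and 3 the 4T1 tumors also lay above their glands without overlap. Those differences of 0.46 (adjusted p = 0.0614) and 0.36 (adjusted p = 0.215) were not called. Without BALB/c gland library 3 of week 1, the week 1 difference was called (0.60, adjusted p = 0.0268).

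Next, the 4T1 and Py230 tumors were compared directly at each time. Of the 10 genes, 2 were called at week 1 (both higher in 4T1 tumors, with 19.4% of all genes called), 4 at week 3 (3 higher and 1 lower, 30.3% of all genes) and 5 at week 6 (4 higher and 1 lower, 40.8% of all genes). The shares of the 10 genes, 20%, 40% and 50%, were thus near those of all genes. Il1b was not among them at any time. Median differences of the 10 genes were 0.0572, 0.351 and 0.384, compared to 0.0055, -0.0112 and 0.0364 over all genes.

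**Figure D3:**
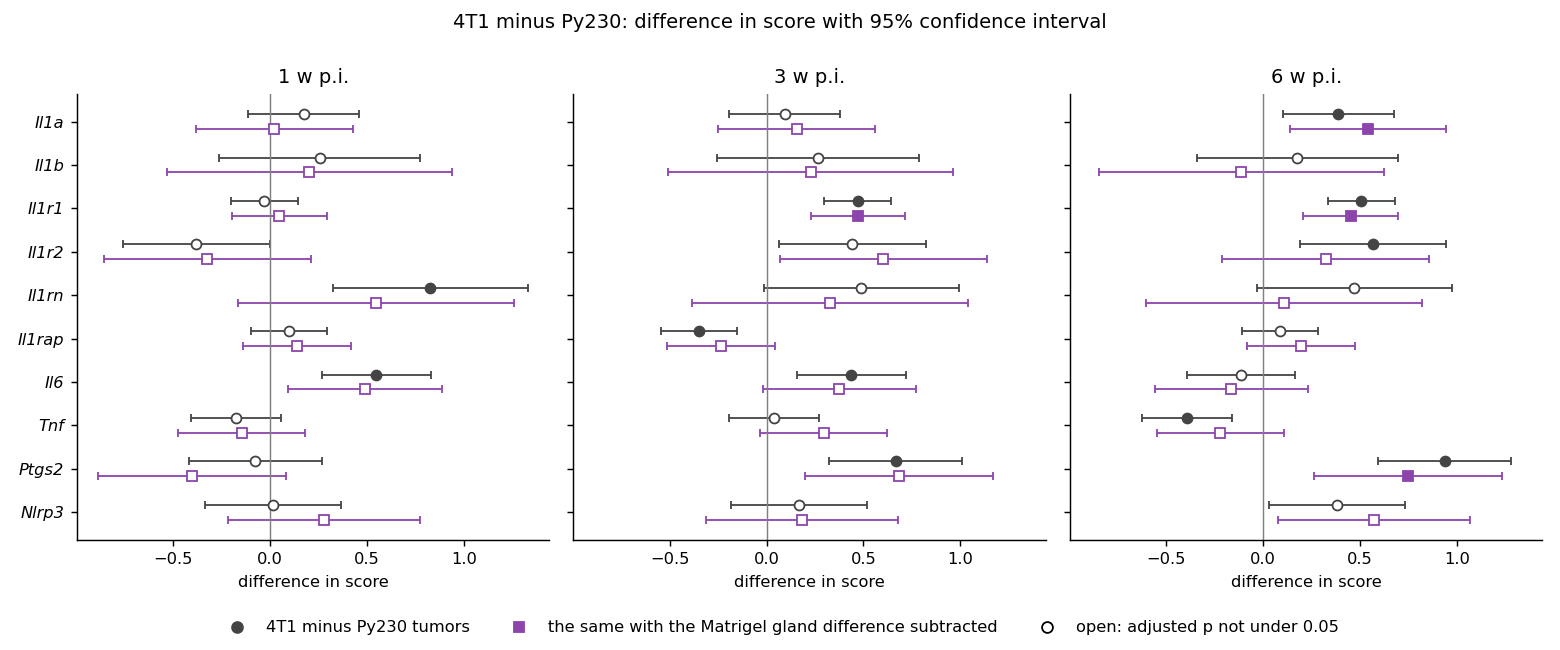
Difference in score between 4T1 and Py230 tumors (circles) and the same difference after the difference of the Matrigel® glands was subtracted (squares), with 95% confidence intervals, filled where the adjusted p was under 0.05. Ptgs2 and Il1r1 lie to the right of 0 at weeks 3 and 6, and Il1b spans 0 at all 3 times.

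At week 1 Il1rn and Il6 were higher in 4T1 tumors. Il1rn was 1.08 ± 0.116 (SD, n = 3) in 4T1 and 0.252 ± 0.409 in Py230 tumors, a difference of 0.83 ± 0.245 (SE, adjusted p = 0.0199), without overlap. Py230 library 1 was lowest (-0.207, compared to 0.385 and 0.578), and without it the difference was 0.598 (adjusted p = 0.137). The call was also lost without 4T1 library 1 (adjusted p = 0.081) or 3 (adjusted p = 0.0728). For Il6, the difference was 0.55 ± 0.136 (adjusted p = 0.00696), but 4T1 tumor 2 (-0.982) lay below Py230 tumor 2 (-0.963). It was 0.332 (adjusted p = 0.0914) without 4T1 library 3 and 0.367 (adjusted p = 0.0762) without Py230 library 1. With only these 6 libraries in the fit, neither gene was called (adjusted p = 0.0568 for Il1rn and 0.172 for Il6).

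The Py230 library 1 of this time was low for several other members. Its Il1b score was -0.565, compared to 0.723 and 0.697 in the other Py230 tumors, and its Nlrp3 score -0.571, compared to 0.369 and 0.361. With all libraries, the Il1b means were 0.541 ± 0.0886 in 4T1 and 0.285 ± 0.737 in Py230 tumors (difference 0.26, 95% confidence interval -0.265 to 0.776, adjusted p = 0.508). At week 3 the difference in Il1b was 0.26 (-0.256 to 0.785) and at week 6 0.18 (-0.343 to 0.698). Without Py230 library 1 the week 1 differences turned in direction, to -0.17 for Il1b (adjusted p = 0.661) and -0.30 for Nlrp3 (adjusted p = 0.16, from 0.02 with all libraries).

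At week 3 the receptor Il1r1 and Ptgs2 were higher in 4T1 tumors and the accessory chain Il1rap was lower. Il1r1 scored 1.18, 1.22 and 1.19 in 4T1 and 0.426, 0.774 and 0.98 in Py230 tumors, a difference of 0.47 ± 0.0842 (adjusted p = 1.57e-04) without overlap, or 0.32 (adjusted p = 0.00202) without Py230 library 1. For Ptgs2, all 4T1 tumors (0.00177 to 0.255) lay above all Py230 tumors (-0.732 to -0.29), with a difference of 0.67 ± 0.167 (adjusted p = 0.00357). Il6 differed by 0.44 (adjusted p = 0.0165), also without overlap, but was no longer called without any of 3 single libraries. Il1rap scored 0.706, 0.311 and 0.189 in 4T1 and 0.927, 0.763 and 0.564 in Py230 tumors, a difference of -0.35 ± 0.0956 (adjusted p = 0.00699). The groups overlapped in 4T1 library 1, and the call was lost without Py230 library 1 (-0.261, adjusted p = 0.0776) or 4T1 library 3 (-0.243, adjusted p = 0.068). With only these 6 libraries in the fit, none of the 4 genes was called (adjusted p = 0.0638 to 0.247). Il1r2 was not called with all libraries (0.44, adjusted p = 0.0693). It was called higher in 4T1 tumors without 4T1 library 3 (0.604, adjusted p = 0.0238) or Py230 library 3 (0.601, adjusted p = 0.0192).

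At week 6 Ptgs2 differed most. The difference was 0.94 ± 0.167 (adjusted p = 5.09e-05), and Il1r1 differed by 0.51 ± 0.0842 (adjusted p = 2.07e-05). Both kept their calls under every alternative. Il1r2, the decoy, scored 0.41, 0.205 and 0.255 in 4T1 and -0.313, -0.172 and -0.343 in Py230 tumors, a difference of 0.57 ± 0.184 (adjusted p = 0.015). Without 4T1 library 1, Il1r2 was no longer called (0.506, adjusted p = 0.0602). Il1a was higher by 0.39 (adjusted p = 0.027), a call that was lost without 4T1 library 1 or 3 or Py230 library 2 or 3 (adjusted p = 0.0584 to 0.0926). Tnf went the other way, with 4T1 scores below all Py230 scores and a difference of -0.39 ± 0.113 (adjusted p = 0.00606).

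Il6 was not called at week 6. Its difference was -0.11 (adjusted p = 0.549), with 4T1 tumors at -1.07 to -0.807 and Py230 tumors at -0.895 to -0.778. For Nlrp3 and Il1rn all 4T1 tumors lay above all Py230 tumors, but with differences of 0.38 (adjusted p = 0.0777) and 0.47 (adjusted p = 0.132) neither was called. With only the libraries of this contrast in the fit, Nlrp3 (adjusted p = 2.84e-04) and Il1rn (adjusted p = 6.23e-04) were both called.

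The Matrigel® glands of the strains gave no call for any of the 10 genes at weeks 1, 3 or 6 by limma (3.06%, 3.77% and 3.84% of all genes were called). At an unadjusted p under 0.05, the counts were 0, 1 and 0, the 1 being Tnf at week 3 (-0.26, adjusted p = 0.287). At week 6, Il1b scores of BALB/c glands (-0.49 to -0.35) lay above those of C57BL/6 glands (-0.742 to -0.692), a difference of 0.29 (adjusted p = 0.698, or 0.0386 when only the gland libraries of that time were fitted). Over time, no gene was called in the glands of either strain. From week 1 to 3 and from week 3 to 6, 0.0139% and 0% of all genes were called in BALB/c glands and 0.129% and 0.217% in C57BL/6 glands, with 1, 0, 0 and 0 of the 10 genes at an unadjusted p under 0.05.

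With the gland difference of the strains subtracted from the tumor difference, no gene was called at week 1 (0.305% of all genes, 1 of the 10 at an unadjusted p under 0.05, and none without Py230 library 1, with adjusted p from 0.242), Il1r1 was called at week 3 (9.15%) and Il1a, Il1r1 and Ptgs2 at week 6 (25.5%). Il1r1 differed by 0.47 ± 0.119 at week 3 (adjusted p = 0.0153) and 0.45 ± 0.119 at week 6 (adjusted p = 0.00567), Ptgs2 by 0.75 ± 0.236 (adjusted p = 0.0198) and Il1a by 0.54 ± 0.197 (adjusted p = 0.0439). Il1a was no longer called without any of 10 of the 12 libraries, Ptgs2 without 4T1 library 2 (0.609, adjusted p = 0.0737) or BALB/c gland library 2 (0.687, adjusted p = 0.0534), and Il1r1 at week 3 without Py230 library 1 (0.321, adjusted p = 0.0579) or BALB/c gland library 2 (0.403, adjusted p = 0.0538). With only the libraries of the contrast fitted, Il1r1 at week 3 was not called (adjusted p = 0.171) and Nlrp3 at week 6 was (0.57, adjusted p = 0.00395). Without 4T1 library 1 of week 3, Il1rap was called at that time (-0.39, adjusted p = 0.0408), and without Py230 library 3 of week 3, Il1r2 was (0.76, adjusted p = 0.0465). These contrasts share the tumor libraries with the direct comparison. Tnf at week 6, called directly, was -0.22 after subtraction (adjusted p = 0.339), beside a gland difference of -0.17 in the same direction.

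Within 4T1 tumors, no gene was called between weeks 1 and 3 (0.628% of all genes were called, and 1 of the 10 had an unadjusted p under 0.05), but without 4T1 library 1 of week 3 Il1rap was lower at week 3 by -0.30 (adjusted p = 0.0194). From week 3 to 6 (53% of all genes), Ptgs2 rose by 1.10 ± 0.167 (adjusted p = 5.70e-06), Il1a by 0.62 ± 0.139 (adjusted p = 5.54e-04) and Il1rap by 0.41 (adjusted p = 8.71e-04, or 0.0591 with only these 6 libraries in the fit), while Tnf fell by 0.44 ± 0.113 (adjusted p = 0.00193). Il1b had means of 0.497 ± 0.329 and 1.08 ± 0.15 at weeks 3 and 6, a difference that was not called (0.58, adjusted p = 0.0552). Without 4T1 library 1 of week 3, the library with few adipocyte transcripts, the Il1b difference was 0.769 (adjusted p = 0.0217).

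In Py230 tumors, the receptors moved between weeks 1 and 3 (20% of all genes were called). Il1r1 fell by 0.34 (adjusted p = 0.00594) and Il1r2 by 0.55 (adjusted p = 0.0343), while Il1rap rose by 0.30 (adjusted p = 0.0298). All 3 calls were lost without Py230 library 1 of week 3, where the differences were -0.194, -0.357 and 0.209, and those of Il1r2 and Il1rap also without any of 4 other libraries. Without Py230 library 1 of week 1, Ptgs2 and Nlrp3 were called lower at week 3 as well, by -0.62 (adjusted p = 0.0122) and -0.48 (adjusted p = 0.0177). From week 3 to 6 (6.03%), Ptgs2 rose by 0.82 ± 0.167 (adjusted p = 0.00302) and Il6 by 0.52 ± 0.136 (adjusted p = 0.0222). The Il6 call was lost without any of 4 single libraries, and with only these 6 libraries in the fit neither was called (adjusted p = 0.0616 for Ptgs2 and 0.0572 for Il6). Il1b, not called with all libraries (0.67, adjusted p = 0.119), was called without Py230 library 1 of week 3 (0.91, adjusted p = 0.0229).

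The difference between 4T1 and Py230 tumors itself changed over time for several receptors. From week 1 to 3 it was called for 4 of the 10 genes (15.3% of all genes), among them Il1r1 with a change of 0.50 and Il1rap with a change of -0.45. From week 3 to 6 it was called for 3 (26.7% of all genes), namely Il1rap, Il6 and Tnf. With only the tumor libraries of both times in the fit, 1 of these 7 changes was called.

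The balance between Il1b and its antagonist Il1rn was described within each library, as the Il1b score minus the Il1rn score. All 18 glands were below 0, between -0.744 and -0.0801. 4T1 tumors were at -0.606, -0.346 and -0.665 at week 1 and at -0.203, -0.151 and -0.0376 at week 3, and all were above 0 at week 6 (0.332, 0.0481 and 0.421). Py230 tumors spread around 0 at week 1 (-0.358, 0.339 and 0.119) and week 3 (0.547, -0.247 and -0.0145) and reached 0.607, 0.528 and 0.547 at week 6. At that time, the Py230 values lay above the 4T1 values without overlap. Since the scores are not per length, only changes of this difference between libraries can be read, not which RNA was more abundant.

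**Figure D4:**
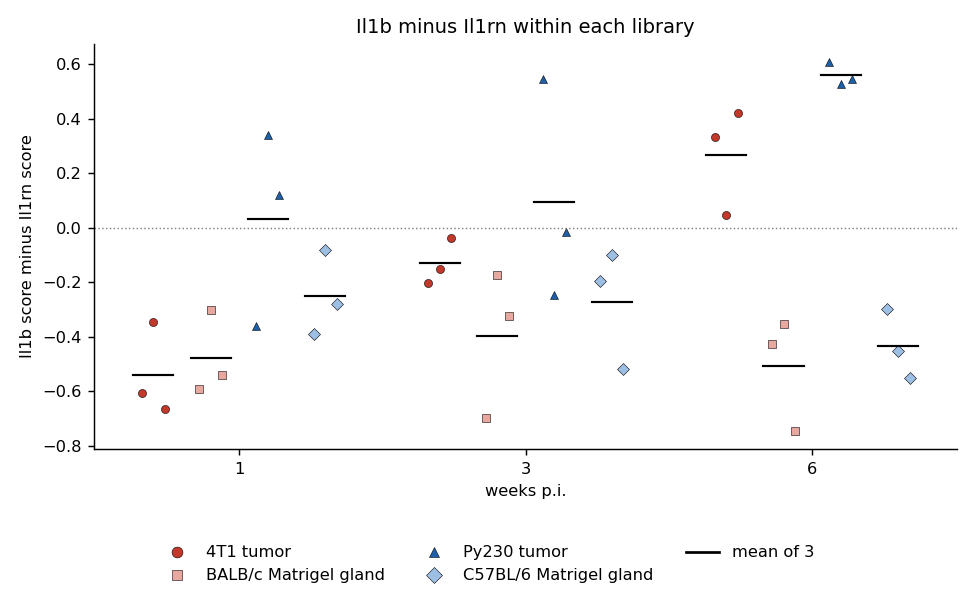
Il1b score minus Il1rn score in each library (vertical) against weeks after inoculation (horizontal), with the mean of 3 libraries per group as a bar. Both tumors reached values above 0 at week 6 (means 0.267 in 4T1 and 0.561 in Py230), while all glands stayed below 0.

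The order of the 12 group means differed between genes. For Il1a, Il1b, Il1r1, Il1r2, Il1rap, Ptgs2 and Nlrp3 the highest mean was that of 4T1 tumors at week 6, for Il1rn and Il6 that of 4T1 tumors at week 1, and for Tnf that of Py230 tumors at week 1. Most neighbours in these orders could not be separated. Of the 11 neighbouring pairs, 8 had overlapping libraries for Il1rn, 9 for Il1a, Il1b, Il1r1 and Ptgs2, 10 for Il1rap and Nlrp3 and all 11 for Il1r2, Il6 and Tnf. The highest group was clear of the next for Il1a, where Py230 tumors at week 6 followed, for Ptgs2 with the same successor, for Il1r1, for Il1rn and for Nlrp3. Il1r2 had the lowest ratio of the SD of the group means (0.198) to the mean SD within groups (0.209), at 0.944. A mean of 3 libraries varies less than a single library, so this ratio does not show that the groups were alike.

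Several of the genes varied together across the 36 libraries, which is given as a description because libraries share groups. The neighbours Il1a and Il1b had r = 0.88, or 0.84 with group means removed. Il1b also went with Ptgs2 (0.83, and 0.74 within groups) and Nlrp3 (0.82, and 0.86 within groups). These within-group values include Py230 library 1 of week 1, which was low in Il1a, Il1b, Ptgs2 and Nlrp3. Its Il1b score was -0.565 (compared to 0.723 and 0.697) and its Nlrp3 score -0.571 (compared to 0.369 and 0.361). The correlations were not computed without this library. The receptors Il1r1 and Il1r2 formed another pair (0.75, and 0.64 within groups), which hardly followed the ligands (0.12 and -0.04 with Il1b). Among about 12032 other genes with a mean score of at least 0, those most alike over the 36 libraries were Csrnp1 (r = 0.92) for Il1b, Cttnbp2nl (0.93) and 1700017B05Rik (0.91) for Il1a, Has2 (0.92) and Qrich1 (0.90) for Ptgs2, Bcl2a1d (0.92) and Ncf4 (0.91) for Il1rn, and Ecm1 (0.90) and Nav1 (0.87) for Il1r1. They were Scara3 (0.83) and Kdelc2 (0.82) for Il1r2, Trim59 (0.94) and Frrs1 (0.93) for Il1rap, Rab35 (0.91) and Vasp (0.90) for Il6, Tank (0.76) and Mob3c (0.74) for Tnf, and Fcgr1 (0.87) and Slfn2 (0.87) for Nlrp3.

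Markers of other cell types moved in the same libraries. Neutrophil markers (10 genes, S100a8 and S100a9 among them) were called higher in 4T1 than in Py230 tumors for 3, 6 and 10 of 10 genes at weeks 1, 3 and 6 (19.4%, 30.3% and 40.8% of all genes were called in either direction), and their mean score at week 6 was 0.0925 to 0.346 in 4T1 tumors, -0.874 to -0.652 in Py230 tumors and -1.24 to -0.999 in BALB/c glands and -1.14 to -1.11 in C57BL/6 glands. Across 36 libraries this mean correlated with Ptgs2 (r = 0.88, or 0.43 with group means removed), Il1a (0.83 and 0.52), Il1b (0.76 and 0.50) and Il1rn (0.72 and 0.59). It also went with Nlrp3 (0.73 and 0.64), Il6 (0.68 and 0.57) and Il1rap (0.56 and 0.64), but little with Tnf (0.05 and 0.34). With group means removed, the leukocyte marker Ptprc followed each of these genes more closely than the neutrophil mean did. Its values were 0.50 for Ptgs2, 0.77 for Il1a, 0.70 for Il1b, 0.79 for Il1rn, 0.77 for Nlrp3, 0.60 for Il6, 0.77 for Il1rap and 0.52 for Tnf. For Il1r1 and Il1r2 the neutrophil mean was closer (0.23 and 0.23, compared to 0.08 and 0.08). The part of neutrophils in these differences was not tested.

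Adipocyte markers moved the other way. All 8 were lower at week 6 in 4T1 and in Py230 tumors compared to their glands, where 60.1% and 47.6% of all genes were called. Their mean score was -0.348 to 0.0323 in 4T1 tumors and -0.105 to 1.13 in Py230 tumors, compared to 1.74 to 2.04 in BALB/c and 1.98 to 2.33 in C57BL/6 glands. It correlated with Il1rap (r = -0.82, or -0.72 with group means removed), Il1a (-0.80 and -0.45), Ptgs2 (-0.79 and -0.36) and Il1b (-0.78 and -0.41). Of 10 macrophage markers, 8, 4 and 4 were higher in 4T1 tumors than in glands at weeks 1, 3 and 6 (beside 9.91%, 2.1% and 38.6% of all genes). In Py230 tumors none was higher than in glands (0.00924%, 19.7% and 47.6% of all genes called in either direction). Against Py230 tumors, 2, 10 and 1 of these 10 markers were called higher in 4T1, beside 19.4%, 30.3% and 40.8% of all genes called in either direction. Ptprc correlated with Nlrp3 (0.72) and Il1rn (0.68) over the 36 libraries. With group means removed, the macrophage mean had values of 0.57 with Il1a, 0.62 with Il1rn, 0.70 with Nlrp3 and 0.69 with Il1rap. It had 0.48 with Il1b, 0.40 with Ptgs2 and 0.20 with Tnf. All 6 fibroblast markers fell in Py230 tumors from week 1 to 3 (20% of all genes called in either direction). Their mean correlated with Il1r2 (0.50, or 0.67 with group means removed) and Il1r1 (0.31 and 0.57). Whether any of these cell types accounts for a difference in the 10 genes was not tested.

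**Figure D5:**
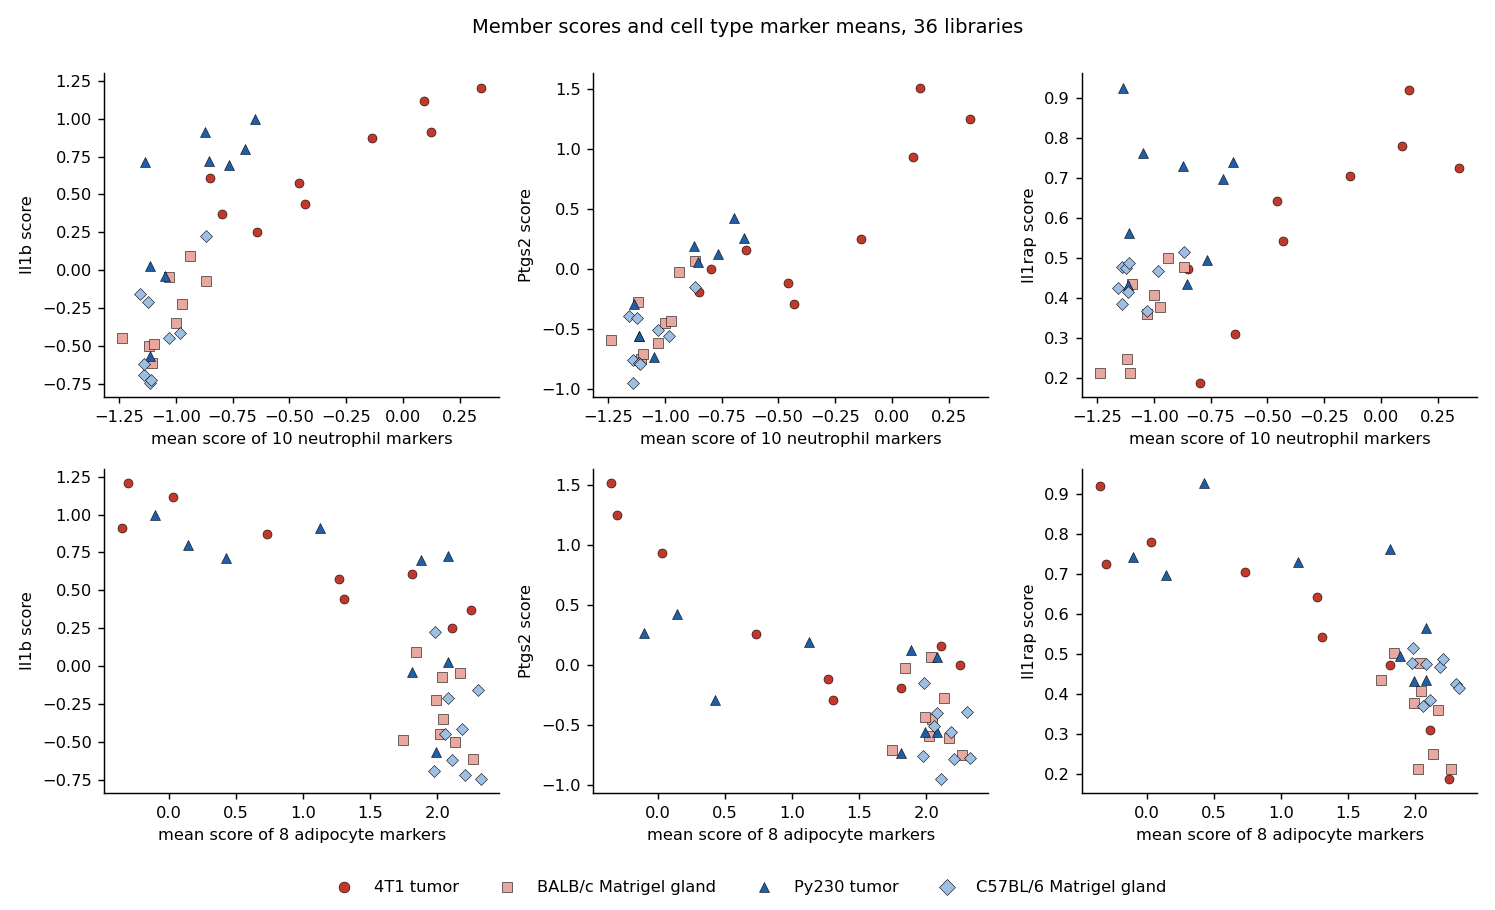
Scores of Il1b, Ptgs2 and Il1rap (vertical) in 36 libraries against the mean score of 10 neutrophil markers (upper row) or 8 adipocyte markers (lower row). The 3 highest Ptgs2 scores (0.932 to 1.51) belong to the 4T1 tumors with the highest neutrophil means (0.0925 to 0.346). Il1rap was also high in Py230 tumors with low neutrophil means, although over the 36 libraries it correlated with that mean (r = 0.56, or 0.64 with group means removed).

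The neighbouring pathway genes were counted without a set test, and each count between the tumors at weeks 1, 3 and 6 stands beside 19.4%, 30.3% and 40.8% of all genes called. Calls of pathway genes were not checked under the alternatives, which were summarised for the 10 members only. Their tumor differences are given without subtraction of the glands. The gland difference of the strains went the same way for, among others, Ltb (0.23) and Ptgis (0.16) at week 3 and Il36g (0.19) at week 6. It went the other way for, among others, Tbxas1 (-0.18), Osm (-0.14) and Il27ra (-0.12) at week 1. The Py230 tumors of week 1 include library 1, with its low Ptprc score. Of the other IL-1 family ligands and receptors, 10 of 15 were in the table, and 2, 4 and 5 of them were called between the tumors at weeks 1, 3 and 6 (all higher in 4T1 tumors except 1 lower at week 6), shares near those of all genes. Il18rap and Il18r1, the 2 chains of the IL-18 receptor, were higher in 4T1 tumors at week 1 by 0.64 (adjusted p = 0.00495) and 0.39 (adjusted p = 0.0351). Il1rl1, the IL-33 receptor, was higher by 0.88 ± 0.127 at week 3 (adjusted p = 1.09e-05), with means of 0.816 ± 0.197 (SD) and -0.0647 ± 0.183, and Il1rl2, the IL-36 receptor, by 0.47 (adjusted p = 9.04e-04). At week 6 the epithelial ligand Il36g (0.79, adjusted p = 4.29e-06) and the inhibitory receptor Sigirr (0.43, adjusted p = 2.10e-06) were higher in 4T1 tumors.

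Of 12 inflammasome and processing genes, 5, 5 and 3 were called at weeks 1, 3 and 6, all higher in 4T1 tumors except Pycard at week 6. Ninj1, which ruptures the membrane of dying cells, was higher by 0.27 (adjusted p = 0.0117) and 0.45 (adjusted p = 5.09e-05) at weeks 1 and 3, the pore-forming gasdermin Gsdmd by 0.43 (adjusted p = 0.00171) at week 3, and the protease Casp8 by 0.18 (adjusted p = 0.0124) and 0.22 (adjusted p = 5.64e-04) at weeks 1 and 6. Pycard, the inflammasome adaptor, was lower by -0.46 (adjusted p = 6.59e-04), beside a difference of -0.49 between the glands of the strains. Compared to BALB/c glands, 8, 4 and 6 of the 12 were higher in 4T1 tumors at weeks 1, 3 and 6 (9.91%, 2.1% and 38.6% of all genes), and compared to C57BL/6 glands 0, 1 and 2 were higher in Py230 tumors (0.00924%, 19.7% and 47.6% of all genes were called in either direction).

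In the IL-6 family and its signal (19 of 20 genes in the table), 4, 7 and 8 were called between the tumors. Osm, which encodes oncostatin M, and Il27ra were higher in 4T1 tumors at week 1 by 0.53 (adjusted p = 0.00592) and 0.47 (adjusted p = 0.00424), and the IL-6 receptor Il6ra by 0.43 (adjusted p = 1.95e-04) at week 3, when Ctf1 was lower by -0.34 (adjusted p = 0.00342). At week 6 the ligand Il11 was higher (0.47 ± 0.0542, adjusted p = 8.29e-08) and its receptor Il11ra1 lower (-0.68 ± 0.0501, adjusted p = 2.34e-11) in 4T1 tumors, while Il6 itself was not called.

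Among 12 genes of TNF receptors, lymphotoxins and their signal, 3, 4 and 3 were called, all higher in 4T1 tumors. Ltb, which encodes lymphotoxin beta, was higher by 0.75 (adjusted p = 0.00183) and 0.61 (adjusted p = 0.00396) at weeks 1 and 3, and the shedding protease Adam17 by 0.25 (adjusted p = 0.0185) at week 1. At week 3 the Ltb scores of the 4T1 and Py230 tumors overlapped. The receptor Tnfrsf1b was higher by 0.41 (adjusted p = 0.0078) at week 3, and the cell death regulators Birc2 and Cflar by 0.17 (adjusted p = 5.80e-04) and 0.14 (adjusted p = 0.00138) at week 6.

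For the shared Myd88, Irak and NF-κB signal, 3, 8 and 6 of 21 genes were called, in both directions. Irak4 was higher (0.21, adjusted p = 0.013) and Nfkbiz lower (-0.33, adjusted p = 0.0306) in 4T1 tumors at week 1, where the Nfkbiz scores of the tumors overlapped. The brake Irak3 was higher at week 3 (0.32, adjusted p = 4.09e-04). The kinase Map3k7 was lower at weeks 3 and 6 by -0.20 (adjusted p = 5.77e-04) and -0.26 (adjusted p = 8.25e-06), and Nfkb2 was higher at week 6 by 0.39 (adjusted p = 8.52e-06).

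Beside Ptgs2, 16 genes of prostaglandin synthesis and receptors were counted, of which 4, 7 and 9 were called between the tumors. Ptgs1 and the thromboxane synthase Tbxas1 were higher in 4T1 tumors at week 1 by 0.37 (adjusted p = 0.0111) and 0.52 (adjusted p = 0.00895), Tbxas1 also by 0.63 at week 3 (adjusted p = 9.75e-04), and the prostacyclin synthase Ptgis by 0.59 at week 3 (adjusted p = 0.00145). At week 6 Hpgd, which degrades prostaglandins, was lower in 4T1 tumors by -0.66 ± 0.117 (adjusted p = 5.29e-05), beside a difference of -0.24 between the glands of the strains. The synthase Ptges3 was higher by 0.16 (adjusted p = 2.79e-04). Compared to their glands at week 6, 5 of the 16 were higher and 7 lower in 4T1 tumors, and 2 higher and 6 lower in Py230 tumors, beside 60.1% and 47.6% of all genes called.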

How the data were processed

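RNA sequencing of whole flash-frozen primary tumors and Matrigel® glands was analysed in 36 libraries. Per the labels and the study's methods, the authors prepared stranded paired-end libraries from total RNA, aligned reads to mm10 with STAR, counted them per gene with summariseOverlaps and used DESeq2, with versions and gene annotation not given in the sources used here. The deposited table holds standardized scores rather than counts: within a library they centre on 0 with an SD of 1, over 21650 genes. How the authors transformed counts to these scores is not described in the sources used here. The standardization fixes the spread of each library, so that a change in many genes shifts the others, and it leaves no depth and no whole reads. Tables of the authors' own comparisons (fold changes and p-values per week) and of gene set results were not used, except for their mean normalized count per gene, which is given as the authors' value. Every column of scores had a sample. Of the genes, 5384 were named from the mouse reference.

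Group means of the 12 groups were fitted to all 36 libraries with limma 3.58.1 in R 4.3.3 (empirical Bayes with trend and robust moderation), and p-values were adjusted by Benjamini and Hochberg over all 21650 genes, with a threshold of 0.05, separately for each of 25 contrasts. No filter or pseudocount was applied. The fit was tested on simulated data for the week 1 difference between the tumors. Of changes of 0.25, 0.5 and 1 in score, it recovered 47.8%, 92.5% and 98.5%, and 10 of 169 calls were unchanged genes. The simulated noise was normal with 1 variance per gene in all groups, so it does not cover unequal group spreads or single libraries that stand apart. Replicate numbers did not pair libraries across groups: 7 of 27 same-numbered pairs had a correlation of deviations above 0.1, with a range from -0.466 to 0.522. Alternatives were fits of only the contrast's libraries, a replicate block, quantile normalization, scaling by the median and median absolute deviation, a filter on low scores, limma without trend and robust moderation, and leaving out each library. Promoter windows and gene positions were read from RefSeq and GENCODE tables, and figures were drawn with matplotlib 3.10.9 in Python 3.11.15.

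The 10 genes, the pathway lists and the marker lists were chosen with earlier results of these data known. Named were all 10 genes, from each pathway list the 2 genes with the smallest p between 4T1 and Py230 tumors at each time, and the 2 genes most alike to each member by Pearson's r. One gene that this rule names is not reported here. Marker lists were summarised by counts and by the mean score per library.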

Additional observations from a re-analysis of the deposited data

Results flagged for a closer look

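Differences between the models that themselves differed between tumor and gland, or between times, were tested as contrasts in limma. With the gland difference of the strains subtracted, Il1r1 differed by 0.472 at week 3 (adjusted p = 0.0153) and 0.453 at week 6 (adjusted p = 0.00567), Il1a by 0.541 (adjusted p = 0.0439) and Ptgs2 by 0.749 (adjusted p = 0.0198) at week 6. The change of the difference between 4T1 and Py230 tumors from week 1 to 3 was called for 4 of the 10 genes (15.3% of all genes): 0.502 for Il1r1 (adjusted p = 0.00724), 0.824 for Il1r2 (adjusted p = 0.0325), 0.743 for Ptgs2 (adjusted p = 0.0338) and -0.447 for Il1rap (adjusted p = 0.0262). The changes thus had opposite signs among the receptors. From week 3 to 6 that of Il1rap was 0.435 (adjusted p = 0.0181). With only the tumor libraries of both times fitted, none of these receptor changes was called (adjusted p = 0.121 to 0.201). The Il1r2 call was lost without any 1 Py230 library of week 1 (adjusted p = 0.0518 to 0.0615). The later Il1rap call was lost without 4T1 library 2 or 3 or Py230 library 1 of week 3, or 4T1 library 2 of week 6 (adjusted p = 0.0516 to 0.0714). In that second interval (26.7% of all genes), the difference in Il6 changed by -0.551 (adjusted p = 0.0354) and that in Tnf by -0.433 (adjusted p = 0.0448). Without 4T1 library 2 of week 3, 1 of these 7 changes between times was called, and with Py230 library 1 of week 3 left out the change in Il1r2 was 0.627 (adjusted p = 0.154) and that in Il1rap -0.36 (adjusted p = 0.124).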

How the results depend on the processing

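Of 54 called differences of the 10 genes, 17 kept their call under every alternative that tested them and 37 lost it under at least 1, and no call changed sign. When only the libraries of a contrast were fitted, the calls numbered 7 instead of 11 between 4T1 and Py230 tumors and 17 instead of 23 of tumors against glands. They numbered 1 instead of 0 between the glands of the strains (Il1b at week 6), 1 instead of 7 for changes of the tumor difference and 5 instead of 9 within tumors. The count of 4 after subtraction of the glands stayed, with Il1r1 at week 3 lost and Nlrp3 at week 6 gained. The filter on low scores, which by construction does not test Il1a, Il6 and Tnf, gave 7 calls between 4T1 and Py230 tumors and 16 of tumors against glands. After subtraction of the glands it gave 3, for changes of the tumor difference 5 and within tumors 7. With the replicate number as a block, the counts of the 7 families of comparisons were 11, 23, 0, 4, 7, 9 and 0, the same as without it, and no call of the 10 genes was changed. Leaving out each library in turn gave 9 to 11 calls between the tumors, 18 to 26 of tumors against glands, 2 to 6 after subtraction of the glands, 1 to 7 for changes of the tumor difference, 6 to 11 within tumors and 0 to 0 for both kinds of gland comparison. The lowest counts came without 4T1 library 3 of week 1 or library 1 of week 6 (9), Py230 library 1 or 3 of week 6 (18), 4T1 or BALB/c gland library 2 of week 6 (2), 4T1 library 2 of week 3 (1) and Py230 library 2 of week 3 (6). Without Py230 library 1 of week 1, 26 tumor and gland differences, 6 subtracted differences and 11 changes within tumors were called, none of the first 2 kinds at week 1. A left-out library is counted for a single gene only in contrasts that hold it. The calls for changes in Il6 and Tnf from week 3 to 6 were lost after quantile normalization (-0.503, adjusted p = 0.0526, and -0.342, adjusted p = 0.117) and after scaling by the median and median absolute deviation (-0.411, adjusted p = 0.0883, and -0.319, adjusted p = 0.104). The cause was not tested. Scores could not be put back to a normalized count scale, because the values of a library had no steps, and this alternative was not run. Depth is unknown, and 3 libraries per group limit the precision.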

Other observations

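Other marker lists moved with the same comparisons. T cell markers were called higher in 4T1 compared to Py230 tumors for 8, 1 and 0 of 8 genes at weeks 1, 3 and 6. Of all genes, 19.4%, 30.3% and 40.8% were called there in either direction. Compared to BALB/c glands, 8, 6 and 4 of these markers were higher (beside 9.91%, 2.1% and 38.6% of all genes). Mast cell markers were lower for 5 of 6 genes in both tumors at week 6 compared to their glands. There, 60.1% of all genes were called in 4T1 and 47.6% in Py230 tumors, in either direction. Endothelial markers were lower for 3 of 5 genes in 4T1 and 4 of 5 in Py230 tumors at that time, beside the same shares of all genes. Their mean correlated with Il1rap over 36 libraries (r = -0.89). Of 5 B cell markers in the table, 0, 3 and 1 were called between the tumors (beside 19.4%, 30.3% and 40.8% of all genes). Of 6 skeletal muscle markers, 5 were lower in 4T1 tumors at week 6 compared to glands (60.1% of all genes called in either direction). Markers of lactating epithelium were lower in 4T1 than in Py230 tumors for 5 of 6 genes at week 6 (40.8% of all genes called in either direction). Their mean scores were -0.876 to -0.84 in 4T1 and 0.0459 to 0.297 in Py230 tumors. The mean score of 7 keratinocyte markers at week 6 was 0.0722 in 4T1 library 3, 0.704 in BALB/c gland library 2 and 0.871 in C57BL/6 gland library 3, compared to -1.41 to -1.27 in the other libraries of these groups. The part of these cell types in the values of the 10 genes was not tested.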
